A study of Saccharomyces cerevisiae with 9 samples.

Results

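The tRNAs described here were those of the amino acids asparagine, aspartate, cysteine, histidine, phenylalanine and tyrosine, each of which is read from a pair of codons that end in a pyrimidine (C or U). They were chosen by name and not by measured values, although earlier results of these data were known. The probes were Asn1y, Asp1y, Asp2y, Cys1y, His1y, Phe1y and Tyr1y. These were 7 of the 64 yeast tRNA probes on tRNA microarrays, which carry DNA oligonucleotides complementary to single tRNA isoacceptors. Of 9 arrays, 3 were charging arrays of Not1 depleted cells, 3 were charging arrays of the corresponding wild-type, and 3 were abundance arrays that carried both strains. Each replicate was an independently grown culture.

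The Not1 depleted cells were budding yeast (Saccharomyces cerevisiae) with the allele not1::NOT1-AID-Myc6-NATMX4, a degron by which auxin triggers destruction of Not1, the scaffold of the Ccr4-Not complex. Both strains were MATa and expressed the plant receptor OsTIR1 from the ADH1 promoter (ura3-1::pADH1-OsTIR1-URA3), and both carried a leu2 allele, trp1-1, can1-100, ADE2 and HIS3,15. By the sample records every culture received auxin (1 mM, 15 min), whereas the methods give ethanol to the control. The strain list of the study differs from the records in mating type, strain number and Myc tag, and it gives ade2 and his3,15 for both strains. The level of Not1 itself was not measured on these arrays. The charging arrays show charged tRNA, which keeps its amino acid and so survives periodate, in Cy3, with all tRNA of that culture in an Atto dye. The abundance arrays show Not1 depleted tRNA in Cy3 against wild-type tRNA in the Atto dye, without dye swaps. The charged fraction and the abundance ratio are both Cy3 over Atto, relative to 4 synthetic tRNA standards (4 pmol of each per 2 µg RNA).

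A tRNA is charged when its aminoacyl-tRNA synthetase joins the amino acid to the 3′ end, and only charged tRNAs are delivered to the ribosome. The anticodons of these 6 amino acids begin with G, which pairs with C and, by wobble, with U, so that a single anticodon serves both codons of a pair. In many eukaryotes the G of the asparagine, aspartate, histidine and tyrosine tRNAs is modified to queuosine, a step that budding yeast lacks.

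The 6 amino acids were served by 55 of 275 nuclear tRNA genes in the RefSeq annotation of the R64 build. The deposited tables name probes only by amino acid and number and do not pair them with genes, so the genes were matched by amino acid. The commonest spliced sequence of each anticodon is printed here with the anticodon in capitals, because that triplet defines the group, together with the variant sequences of the aspartate and phenylalanine genes. The gene shown for asparagine lay at chrIII:127716-127789 (plus strand), that for aspartate at chrII:405960-406031 (plus) and its variant at chrXIV:519099-519169 (minus). The gene for cysteine lay at chrII:643007-643078 (minus), that for histidine at chrV:207357-207428 (plus), that for phenylalanine at chrII:36398-36488 (plus) with its variant at chrIV:1095370-1095461 (minus), and that for tyrosine, SUP2, at chrIV:946312-946400 (plus).
tRNA-Asn: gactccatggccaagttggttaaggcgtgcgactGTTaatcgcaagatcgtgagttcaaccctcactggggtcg
tRNA-Asp: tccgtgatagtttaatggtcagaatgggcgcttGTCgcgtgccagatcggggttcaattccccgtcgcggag
tRNA-Asp variant: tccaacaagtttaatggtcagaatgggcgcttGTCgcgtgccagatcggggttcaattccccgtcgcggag
tRNA-Cys: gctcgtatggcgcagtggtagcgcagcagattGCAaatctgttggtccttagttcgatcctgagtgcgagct
tRNA-His: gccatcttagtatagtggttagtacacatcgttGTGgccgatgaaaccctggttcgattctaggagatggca
tRNA-Phe: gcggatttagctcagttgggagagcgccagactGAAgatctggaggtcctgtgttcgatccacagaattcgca
tRNA-Phe variant: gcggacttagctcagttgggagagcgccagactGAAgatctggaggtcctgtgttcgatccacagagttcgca
tRNA-Tyr: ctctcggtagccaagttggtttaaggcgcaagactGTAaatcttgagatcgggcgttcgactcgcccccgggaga
All 10 asparagine, 4 cysteine, 7 histidine and 8 tyrosine genes had the same mature sequence within each amino acid. Of 16 aspartate genes, 15 shared the sequence shown and 1 differed from it by 4 edits, and of 10 phenylalanine genes, 8 shared it and 2 differed by 2 edits. All 10 phenylalanine and all 8 tyrosine genes held an intron of 14 to 19 nucleotides, and the genes of the other 4 amino acids held none. The annotation thus held 2 sequences with the aspartate anticodon, but whether Asp1y and Asp2y correspond to them could not be read from the tables.

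No difference in the charged fraction of these tRNAs between Not1 depleted and wild-type cells passed the test, and each of the 7 differences between means lay within 1 SD of the wild-type replicates. In the limma model of the 6 charging arrays, 0 of the 7 members passed an adjusted p of 0.05 in either direction, and the same was true of 0 of all 64 probes (0% lower and 0% higher), also at an unadjusted p of 0.05. Every member's replicates overlapped between the strains, and 0 of all 64 probes lacked such overlap (0% lower and 0% higher). The mean log2 changes of the members lay between -0.44 for Tyr1y and 0.32 for Cys1y, with a median of -0.22 against 0.0033 over all 64 probes, each with a standard error of 0.47.

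**Figure D1:**
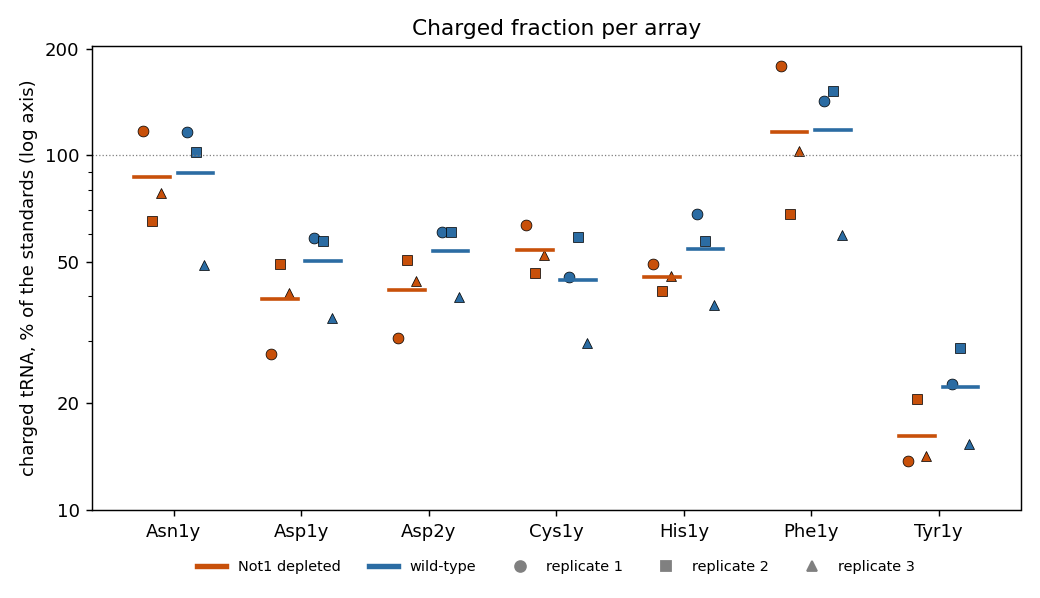
Charged fraction of the 7 probes on each charging array, as percent of the standards on a log axis, with Not1 depleted arrays left of wild-type arrays and a bar at the mean of 3 replicates. The 3 values of each strain overlap those of the other for every probe, Tyr1y lies lowest on each array and Phe1y highest.

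Tyr1y, for the tRNA that tyrosyl-tRNA synthetase charges, had the lowest charged fraction of the members. It was 13.7%, 20.6% and 14.2% in Not1 depleted replicates 1, 2 and 3, against 22.7%, 28.7% and 15.4% in the wild-type. The means were 16.2% ± 3.84 and 22.3% ± 6.66 (SD, n = 3 each), and the exact two-sided permutation test gave p = 0.2, where 0.1 is the smallest p that 3 against 3 arrays allow. Not1 depleted replicate 2 lay above wild-type replicate 3, so that the groups overlapped. The log2 change was -0.44 (95% confidence interval -1.36 to 0.48, limma adjusted p = 0.994).

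Both aspartate probes followed each other from array to array. Asp1y had 27.6%, 49.4% and 40.8% in Not1 depleted cells, against 58.3%, 57.5% and 34.9% in the wild-type. Asp2y had 30.6%, 50.7% and 44.2% in Not1 depleted cells, against 60.9%, 60.8% and 39.8% in the wild-type. In each case Not1 depleted replicate 1 was the lowest of the 6 arrays, wild-type replicate 3 came next, and the other wild-type arrays were the highest. The means of Asp1y were 39.3% ± 10.98 in Not1 depleted cells and 50.2% ± 13.3 in the wild-type, and those of Asp2y were 41.8% ± 10.3 in Not1 depleted cells and 53.8% ± 12.2 in the wild-type (SD, n = 3 each, exact permutation p = 0.3 for each). The log2 changes were -0.36 for Asp1y and -0.37 for Asp2y (limma adjusted p = 0.994 for each). Over all 9 arrays, the log2 ratio of Asp1y minus that of Asp2y lay between -0.38 and 0.21. The probes may share targets, since the genes of this anticodon are nearly identical, and they are not counted as independent measurements.

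His1y is the probe for histidine tRNA, which is unusual in carrying an extra guanosine at its 5′ end after processing. It had 49.3%, 41.5% and 45.8% in Not1 depleted cells, against 68.2%, 57.5% and 37.8% in the wild-type (45.5% ± 3.92 and 54.5% ± 15.4, SD, n = 3 each, exact permutation p = 0.4). The 3 Not1 depleted values lay between the lowest and the highest wild-type values. The log2 change was -0.22 (95% confidence interval -1.14 to 0.70). On wild-type replicate 1, which gave the 68.2%, the Atto foreground of His1y was 0.0562 times the 95th percentile of the blank spots, and without that array the change was -0.04.

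Cys1y, the cysteine probe, was the one member with a log2 change above 0.1. Its charged fraction was 63.6%, 46.7% and 52.3% in Not1 depleted cells, against 45.4%, 58.7% and 29.7% in the wild-type. The wild-type value of replicate 2 exceeded those of Not1 depleted replicates 2 and 3. The means were 54.2% ± 8.62 in Not1 depleted cells and 44.6% ± 14.6 in the wild-type (SD, n = 3 each, exact permutation p = 0.4), and the log2 change was 0.32 (95% confidence interval -0.59 to 1.24, limma adjusted p = 0.994). With the background subtracted plainly it was -0.11, where the median of all probes was -0.46.

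Asn1y and Phe1y, for the tRNAs that carry asparagine and phenylalanine, had the highest charged fractions. Asn1y had 117%, 65.5% and 78.2% in Not1 depleted cells, against 116%, 102% and 49.1% in the wild-type (86.9% ± 26.9 and 89.3% ± 35.5, SD, n = 3 each, exact permutation p = 1). Phe1y had 179%, 68.1% and 103% in Not1 depleted cells, against 143%, 152% and 59.5% in the wild-type (117% ± 56.7 and 118% ± 50.8, SD, n = 3 each, exact permutation p = 1). The log2 changes were 0.01 for Asn1y and -0.01 for Phe1y, and the sign of each turned under several settings. Without wild-type replicate 1, on which both lay below the 95th percentile of the blank spots, they were 0.25 for Asn1y and 0.18 for Phe1y. The 95% confidence intervals were -0.90 to 0.93 for Asn1y and -0.93 to 0.91 for Phe1y. Values above 100% occurred on 3 arrays for Asn1y and on 4 for Phe1y, together 7 of 42 member values, so that the percentages are relative to the standards and are not true shares of charged molecules.

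Whole arrays differed in level. The median over all 64 probes was 102%, 64.9% and 77.5% on the Not1 depleted arrays, against 107%, 99.1% and 51.8% on the wild-type arrays. The median over the members was lower than that on each of the 6 arrays, at 49.3%, 49.4% and 45.8% on the Not1 depleted arrays, against 60.9%, 58.7% and 37.8% on the wild-type arrays. Wild-type replicate 3, which had the lowest median of all probes, also gave the lowest value of Asn1y, Cys1y, His1y and Phe1y among the 6 arrays. The part of such array-wide shifts in the spread between replicates was not tested.

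The order of the members was partly the same on all arrays. Phe1y ranked first, Asn1y second and Tyr1y last of the 7 on 6 of 6 charging arrays, in both strains. Among all 64 probes, Tyr1y was the last or the last but 1 on each, with rank 63 or 64. Glu1y, no member, lay below it on Not1 depleted replicate 1 (log2 ratio -2.94 against -2.86) and wild-type replicate 2 (-2.28 against -1.80). Phe1y ranked 8 to 27, and Asn1y 28 to 35. Asp1y, Asp2y, Cys1y and His1y changed places from array to array, between ranks 3 and 6 of the 7, and the values of any pair of them overlapped within each strain. The values of Phe1y and Asn1y also overlapped within each strain, whereas those of Tyr1y lay below those of every other member in both. The measured log2 ratio of Phe1y minus that of Tyr1y was 3.70, 1.73 and 2.86 on the Not1 depleted arrays, against 2.65, 2.40 and 1.95 on the wild-type arrays. On wild-type replicates 1 and 3 some spots of Tyr1y were saturated in the Atto channel, and on wild-type replicate 1 Phe1y was not above the blank percentile, so these differences are not exact. The 4 standards, which were added in equal amounts, themselves differed by 1.99 to 3.70 in log2 ratio within a charging array, with Ser3h the lowest on 6 of 6. The other 3 differed by 0.72 to 1.52, which was less than the difference between Phe1y and Tyr1y on each array. With all 4 standards the range exceeded that difference on replicates 2 and 3 of each strain, and was smaller on replicate 1 of each. An order between probes is a description of these arrays only.

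The same counts in other groups of probes are set beside these. Of 6 probes for the same amino acids with the prefix m in the name, 4 probes of 2-codon boxes ending in a purine (Gln1y, Glu1y, Lys1y and Lys2y) and 13 probes of 4-codon boxes, 0 passed a limma adjusted p of 0.05 in the charged fraction. Their median log2 changes were -0.14, 0.24 and 0.15, against -0.22 for the members. Likeness over the 6 charging arrays was described by correlating log2 charged fractions, after each array's median over all 64 probes was subtracted. Only probes outside the members were searched. Among them Glu1y ran most like Asp1y (r = 0.933), Asp2y (r = 0.952) and His1y (r = 0.909). The nearest of these other probes were Trp1y for Phe1y (r = 0.981), mSer2y for Asn1y (r = 0.986), mPro1y for Tyr1y (r = 0.922) and mVal1y for Cys1y (r = 0.835).

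The total tRNA in the Atto channel of the charging arrays, set against the same standards, gave no difference that passed the test either. In limma, 0 of 7 members and 0 of 64 probes passed an adjusted p of 0.05 (0%), and at an unadjusted p of 0.05 the 1 higher probe of 64 (1.56%) was no member. Replicates of the strains did not overlap for 5 of 64 probes, higher in Not1 depleted cells (7.81%), and for 0 of the 7 members.

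**Figure D2:**
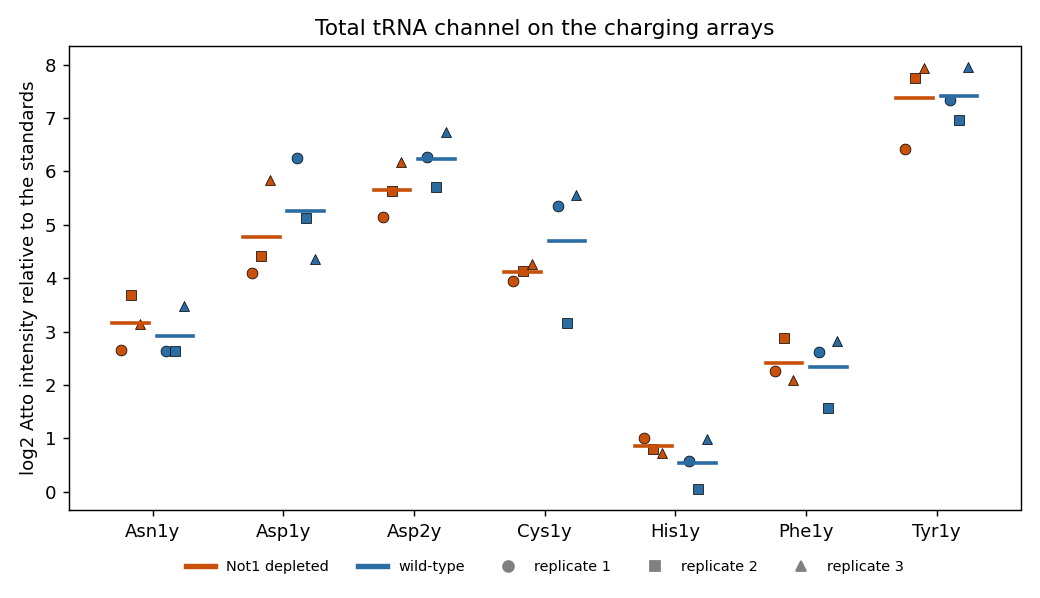
Total tRNA channel of the 7 probes on each charging array, as log2 Atto intensity relative to the standards, with Not1 depleted arrays left of wild-type arrays and a bar at the mean of 3 replicates. The values of the strains overlap for every probe.

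For Cys1y the log2 Atto values were 3.94, 4.13 and 4.26 in Not1 depleted cells, against 5.35, 3.16 and 5.56 in the wild-type. The wild-type values lay on either side of the Not1 depleted ones, and the log2 change was -0.58 (standard error 0.61, limma adjusted p = 0.961). For Asp1y they were 4.10, 4.41 and 5.83 in Not1 depleted cells, against 6.26, 5.13 and 4.36 in the wild-type, with a log2 change of -0.47. For Asp2y they were 5.15, 5.64 and 6.17 in Not1 depleted cells, against 6.27, 5.70 and 6.74 in the wild-type, with a log2 change of -0.58. These changes depended on which blocks were used. The tables used 2 layouts of probe names, in 6 of the 12 blocks each. In the blocks of the first layout alone the changes were 0.15 for Asp1y, 0.28 for Asp2y and -0.04 for Cys1y, where the median of all probes was 0.53. In those of the second alone they were -2.78, -3.74 and -2.75 for these probes, where the median of all probes was -1.74, and the lowest limma adjusted p was 0.0880, for Asp2y. For His1y the change was 0.31, and for Asn1y, Phe1y and Tyr1y it was 0.24, 0.08 and -0.05. The same adjusted p of 0.961 held for all members, and the median change of the members was -0.05, against 0.15 over all probes. In the Cy3 channel, the charged tRNA alone, the changes of the 7 members lay between -1.43 for Asp2y and -0.23 for Asn1y, with a standard error of 0.97. There 47 of 64 probes also lay below 0, 0 of 64 passed the threshold (0%), and the members' median was -0.74 against -0.26 over all probes.

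The abundance arrays compared the total tRNA of both strains directly. The log2 ratio (Not1 depleted over wild-type) was below 0 in the mean for 7 of 7 members, and for 58 of all 64 probes, and none of them passed an adjusted p of 0.05 (0 of 64, 0% in either direction). With the arrays scaled to the median of all probes in place of the standards, the mean ratios of the members were -0.37 to 0.11. At an unadjusted p of 0.05, 13 of 64 probes were lower (20.3%), and Phe1y was the only member among them.

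**Figure D3:**
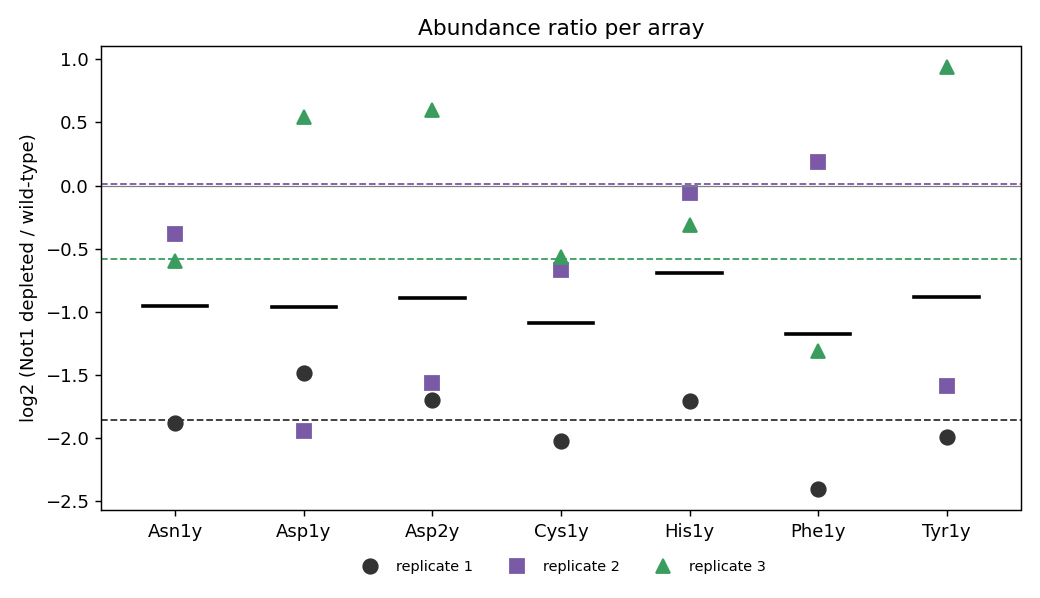
Log2 of Not1 depleted over wild-type tRNA for the 7 probes on each of 3 abundance arrays, with a black bar at the mean and a dashed line at each array's median over all 64 probes. Asp1y, Asp2y and Tyr1y lie low on replicate 2 and highest on replicate 3, and Phe1y lies highest on replicate 2 and lowest on replicate 1.

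Phe1y had log2 ratios of -2.40, 0.19 and -1.31 on replicates 1, 2 and 3. The mean was -1.18 (standard error 0.58, 95% confidence interval -2.33 to -0.03, limma adjusted p = 0.213). This interval rests on 1 variance shared by all 64 probes, whereas the SD of the 3 values of Phe1y was 1.30. Replicate 2 lay above 0 and the others below. Without replicate 2 the mean was -1.86 and the limma adjusted p = 0.0310, with 23 of 64 probes called lower in place of 0.

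Cys1y, Asn1y and His1y lay below 0 on all 3 arrays, which was so for 19 of 64 probes (29.7%). Cys1y had log2 ratios of -2.03, -0.67 and -0.57 (mean -1.09, limma adjusted p = 0.213). Asn1y had -1.88, -0.39 and -0.60 (mean -0.95, limma adjusted p = 0.244). His1y had -1.71, -0.057 and -0.32 (mean -0.69, limma adjusted p = 0.395). In each of these probes, replicate 1 was far below the others. On replicate 3 the Cy3 foreground of His1y, 317, was below the 95th percentile of the blank spots, 359.

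The aspartate and tyrosine probes moved together and changed sides. Asp1y had log2 ratios of -1.49, -1.95 and 0.55, Asp2y had -1.70, -1.57 and 0.60, and Tyr1y had -1.996, -1.59 and 0.94. Replicate 3 was thus above 0 for these 3 probes, although its median over all probes was -0.58, and replicates 1 and 2 were below. Their means were -0.96, -0.89 and -0.88 (limma adjusted p = 0.244 for each). On replicate 2 Asp1y, Tyr1y and Asp2y ranked 64, 63 and 62 of 64 from the top, and on replicate 3 Tyr1y, Asp2y and Asp1y ranked 6, 8 and 9. Phe1y ranked 24 on replicate 2 and 59 on replicate 3. The change of sides was not particular to members, since Glu1y had log2 ratios of -1.42, -1.43 and 0.99.

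Array-wide shifts were large here too. The median over all probes was -1.86, 0.02 and -0.58 on replicates 1, 2 and 3, and the standards differed by 0.60 to 2.32 in log2 within an array. The members covered a range of 0.92 on replicate 1, 2.14 on replicate 2 and 2.25 on replicate 3. The median of the members' mean ratios was -0.95, against -0.89 over all probes, -1.17 for the 4 purine-ending probes, -1.07 for the 13 probes of 4-codon boxes and -0.20 for the 6 probes with the prefix m, 0 of which passed the threshold in any list. Without dye swaps, a difference between the dyes cannot be told apart from a difference between the strains.

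Most saturated spots belonged to 3 of these probes. A saturated pixel has reached the scanner's ceiling, so that its intensity is only a lower limit. Spot values were medians over pixels, so a spot was cut off only where its median reached the ceiling. Of 78 spots with saturated pixels in the Atto channel over all 9 arrays, 71 were spots of members, with 29 of Tyr1y, 24 of Asp1y and 18 of Asp2y. Abundance replicate 1 held 38 of them and replicate 2 held 20, while replicate 3, on which these 3 probes were above 0, held 0. On replicate 1 the median lay at the ceiling in 6 spots of Asp1y, 14 of Asp2y and 11 of Tyr1y. On replicate 2 it did so in 4 spots of Asp1y and 0 of Asp2y, while Tyr1y had 0 saturated spots there. The Atto dye on these arrays marked the wild-type. The log2 ratios of Asp1y, Asp2y and Tyr1y on replicate 1 and that of Asp1y on replicate 2 are therefore upper limits. On replicate 2 all 18 spots of Asp1y were saturated, so without saturated spots it had no value on that array and no row in that alternative, while Asp2y was -0.83 and Tyr1y -0.85. On the charging arrays, 0 member spots were saturated in the Atto channel in Not1 depleted cells, against 13 in the wild-type, of which 12 were of Tyr1y on replicates 1 and 3. The median of these Tyr1y spots reached the ceiling in 0 on replicate 1 and in 1 on replicate 3, so most were not cut off. Without saturated spots the log2 change of Tyr1y was -0.50 in place of -0.44.

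The members differed in their number of spots. Asn1y, Asp1y, Asp2y and Tyr1y had 18 spots per array, Cys1y and His1y 12, and Phe1y 6. The median Atto foreground was at most 1307 for His1y on any array and at least 12211 for Tyr1y. In the Atto channel all 7 exceeded the 95th percentile of the blank spots on 8 or 9 of 9 arrays. The exception was wild-type charging replicate 1, whose blanks were bright, for Asn1y, His1y and Phe1y, at 0.404, 0.0562 and 0.226 times that percentile. In Cy3 these probes were also below it on that array. On abundance replicate 3 the Cy3 foreground of His1y was 317, against a blank percentile of 359. The SD of the log2 ratio over repeated spots of a probe within an array had a median over arrays of 0.13 for His1y up to 0.41 for Cys1y. It reached 0.87 for Cys1y on Not1 depleted charging replicate 1 and 1.09 on abundance replicate 3, and 0.69 for His1y on abundance replicate 1.

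The 2 layouts of names differed at 26 positions of a block. Asp1y was dimmer in the blocks of the second layout than in those of the first on 9 of 9 arrays, by -1.19 to -5.70 in log2 Atto (median -2.66). On Not1 depleted charging replicate 2, for example, the median foreground of its lit spots was 254.5 in the second layout and 20312 in the first. Both positions of Asp1y in the second layout were dim there, with medians of 82.5 and 81 over all spots. The log2 ratio of Asp1y nonetheless differed between the layouts by only -0.12 to 0.42. Asp2y differed by -3.94 to 0.45 in log2 Atto, Cys1y by -2.80 to 0.12, His1y by -1.45 to -0.02, Asn1y by -2.58 to 0.58 and Tyr1y by -1.22 to 0.64, and Phe1y had spots in the first layout only.

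**Figure D4:**
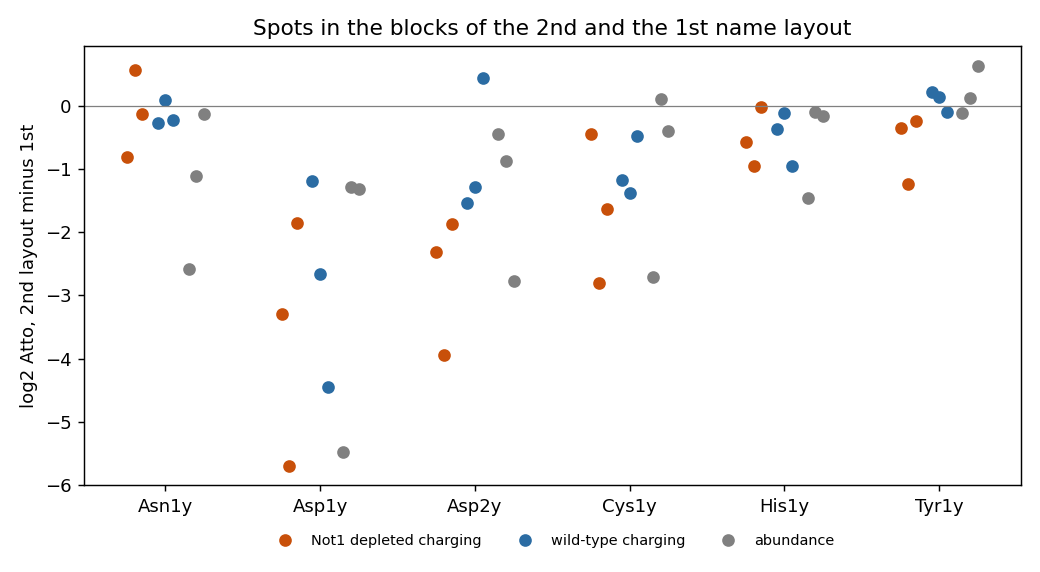
Log2 Atto intensity of the spots in blocks of the second name layout minus that in blocks of the first, for the 6 probes present in both, with 1 point per array and Not1 depleted charging arrays left of wild-type charging and abundance arrays. Asp1y is below -1 on all 9 arrays, and Tyr1y lies near 0 on most.

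The total channel of the aspartate probes depended on these blocks, as given above, whereas their charged fraction did so less. The log2 change in the total channel of Tyr1y was 0.42 in the first layout alone and -2.37 in the second alone, in place of -0.05.

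A further 6 spots carried the name Asp2y in row 3, column 11 of the second layout, and these were kept out of Asp2y because they were dimmer than most of its other 18 spots. The median Atto foreground of those that were lit was 1846, 1755 and 1207.5 on the Not1 depleted charging arrays, against 13113, 832.5 and 9059 on the wild-type charging arrays. In the same blocks, Cys1y had 1593, 1847 and 1366 on the Not1 depleted arrays, against 10767.5, 2379 and 9588.5 on the wild-type arrays. Asp2y had 1646, 1021 and 3360 on the Not1 depleted arrays, against 16346.5, 5409 and 28421 on the wild-type arrays. On the abundance arrays the 6 spots had 7802.5, 13619 and 6598.5, Cys1y had 16749, 12051.5 and 6908, and Asp2y had 60497, 37093 and 2201.5. The 6 spots thus lay closer to Cys1y than to Asp2y on 8 of 9 arrays in the Atto channel, on 8 of 9 in Cy3 and on 7 of 9 in the log2 ratio.

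**Figure D5:**
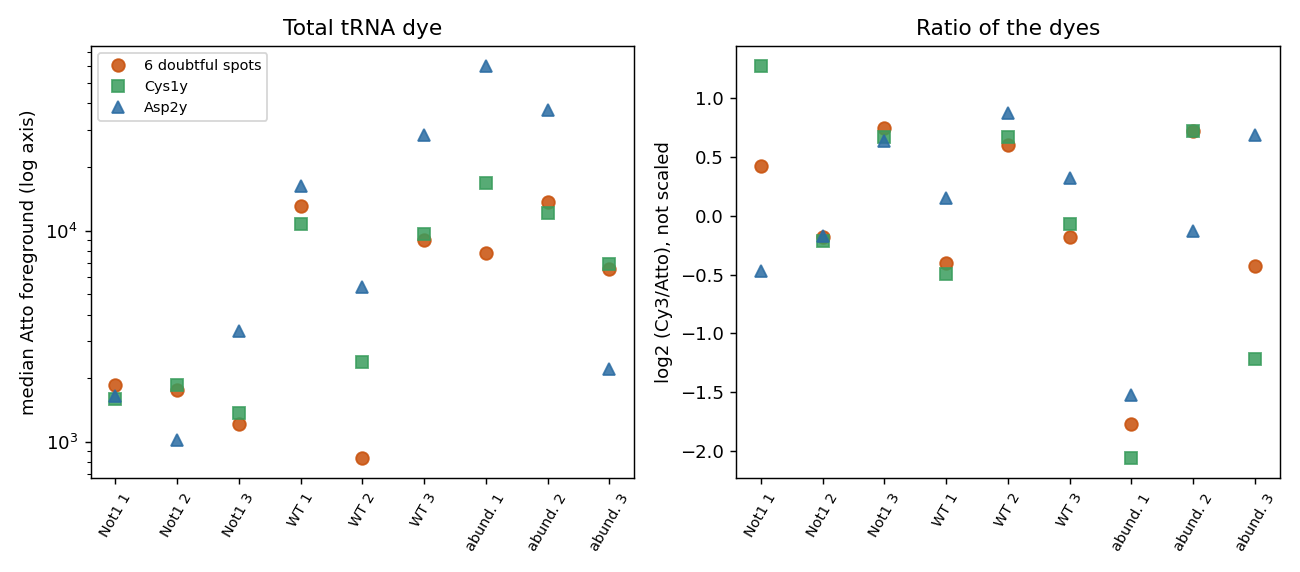
Median Atto foreground on a log axis and log2 (Cy3/Atto) of the 6 doubtful spots, of Cys1y and of Asp2y in the same blocks, on the 3 Not1 depleted charging, 3 wild-type charging and 3 abundance arrays. The doubtful spots lie near Cys1y on most arrays and far from it on Not1 depleted charging replicate 1 and abundance replicate 3 in the ratio.

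Over the 56 probes present in these blocks, Cys1y was the nearest, with a root mean square difference of 0.64 in log2 over both channels and 9 arrays, and Asp2y was number 14, with 1.69. Lys2y came next after Cys1y, with 0.83. The comparison was made after the values had been seen. At row 3, columns 1, 3, 5 and 7, the first layout named Ala1y, Arg1y, Arg3y and Asn1y where the second named Ala2y, Arg2y, Arg4y and Asp1y, while column 11 bore the name Asp2y in both. Which probe the 6 spots hold was not tested. Counted as Cys1y, they left its log2 change of the charged fraction at 0.33 and its mean abundance ratio at -1.06, and counted as Asp2y they made these -0.19 and -0.92 for that probe.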

How the data were processed

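The deposited values are the raw foreground and local background intensity of every spot in Cy3 and Atto and its percent of saturated pixels, which the authors' image software wrote without normalization. The members and the lists of other probes were chosen with earlier results of these data known. Within a block, the names of rows 5 to 8 were shifted down by 1 row, which left row 5 unnamed. Spots were kept where at least 50% of pixels exceeded the background by 2 SD in either channel. Intensities were corrected with normexp (offset 50, limma 3.58.1, R 4.3.3), and repeated spots were averaged for 64 probes. The log2 (Cy3/Atto) was scaled to the median over the pooled lit spots of 4 standards (His1h, Ser3h, EcLys2 and EcTyr2). A standard with more lit spots thus weighed more, with 33 of Ser3h and 9 of EcTyr2 on Not1 depleted charging replicate 1. All 64 were fitted with lmFit and eBayes, with Benjamini-Hochberg adjustment and a threshold of 0.05 (3 against 3 charging arrays, and an intercept for the 3 abundance arrays). limma gave the ratios of all probes 1 variance. The calculation was tested on simulated data. All members are named. These are intensities and not counts, and there were 3 arrays a group. After seeing the data, these alternatives were added: the doubtful spots counted as Cys1y, all Asp2y spots of row 3 left out, and each name layout alone. Genes and sequences came from the RefSeq annotation of R64.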

Additional observations from a re-analysis of the deposited data

Results flagged for a closer look

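The 6 spots named Asp2y in row 3, column 11 of the second name layout were left out of Asp2y and of the main comparisons, entering only the alternatives that counted them as Asp2y or as Cys1y, and they gave a signal above the blank spots. Their median Atto foreground was between 2.28 and 232 times the 95th percentile of the blanks, and exceeded it on 9 of 9 arrays.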

How the results depend on the processing

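The number of probes past the threshold was 0 in each direction for the charged fraction, the abundance ratio, the total channel and the charged channel, except that 4 probes had a lower charged fraction with plain subtraction of the background, none of them a member, and that the number lower on the abundance arrays ran from 0 to 23 when an array was left out. When each charging or abundance array was left out in turn, members' values ran from -0.37 to 0.25 for Asn1y and from -0.45 to 0.32 for Phe1y in the charged fraction. The other members kept their sign, with Asp1y between -0.60 and -0.12, Asp2y between -0.57 and -0.16, Cys1y between 0.057 and 0.55, His1y between -0.46 and -0.037 and Tyr1y between -0.68 and -0.23. In the abundance ratio the values ran from -1.86 to -0.56 for Phe1y, -1.24 to -0.49 for Asn1y, -1.72 to -0.47 for Asp1y, -1.63 to -0.48 for Asp2y, -1.35 to -0.62 for Cys1y, -1.01 to -0.19 for His1y and -1.79 to -0.33 for Tyr1y. In the total channel they ran from -0.021 to 0.53 for Asn1y, from -0.998 to 0.031 for Asp1y, from -0.30 to 0.32 for Phe1y, from -0.34 to 0.42 for Tyr1y, from -0.85 to -0.33 for Asp2y, from -1.34 to -0.15 for Cys1y and from 0.066 to 0.53 for His1y.

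Members' log2 changes changed sign as follows, each with a limma adjusted p above the threshold. For the charged fraction, Asn1y was -0.44 with plain subtraction, -0.10 with no background correction, -0.26 with an offset of 0, -0.022 with no scaling and -0.16 with the mean foreground, and Cys1y was -0.11 with plain subtraction, under which Tyr1y was -0.89, Asp1y -0.82 and Asp2y -0.82 and the median of all probes -0.46. Phe1y was 0.021 when scaled to the median of all probes, 0.089 without Ser3h, 0.024 with all spots, 0.019 with the deposited names, 0.045 with the median over spots and 0.042 in the first layout, and His1y was 0.19 in the second. For the abundance ratio, His1y was 0.11 when scaled to the median of all probes, and with the deposited names His1y was 0.18, Phe1y 0.17 and Tyr1y 0.41. For the total channel, Tyr1y was 0.24 with plain subtraction, 0.080 with no correction, 0.22 with an offset of 0, 0.32 with the deposited names, 0.047 with the mean foreground and 0.42 in the first layout. Phe1y was -0.029 when scaled to the median of all probes, -0.082 without Ser3h, -0.53 with no scaling and -0.28 with all spots. With no scaling Asn1y was -0.37 and His1y -0.31, with all spots they were -0.057 and -0.063, and in the second layout -1.58 and -1.56. Asp1y was 0.54 with the median over spots and 0.15 in the first layout, where Asp2y was 0.28. The other 126 of 139 values of the charged fraction, 127 of 131 of the abundance ratio and 120 of 139 of the total channel kept their sign and stayed on the same side of the threshold, although in the second layout the total channel of Asp1y, Asp2y, Cys1y and Tyr1y was -2.78, -3.74, -2.75 and -2.37. The causes were not tested.

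The sample titles do not say whether the replicate numbers pair the charging arrays of the strains, and the main fit did not pair them. Deviations of same-numbered arrays from their group means correlated at 0.09, -0.61 and -0.05. Those of other pairs correlated at -0.70 to 0.78, so these values do not decide it. With the number as a block, 0 probes passed for the charged fraction and 0 for the total channel, and the adjusted p of the members was 0.994 for the charged fraction and 0.973 for the total channel. The standard error of the members' charged fraction was 0.47 in log2 with the 4 standards, 0.26 to 0.30 without Ser3h and 0.20 to 0.32 when scaled to the median of all probes, and 0 probes passed under any of these.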
